A study of Mus musculus with 8 samples.

Results

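The E2F transcription factors and their DP partners are encoded in the mouse by 10 genes, E2f1 to E2f8, Tfdp1 and Tfdp2, and the binding of E2f3 and Myc at these genes was examined in intestinal epithelium. The genes were taken by name from the 22238 protein-coding genes of the GENCODE M1 annotation (mouse build mm9, NCBIM37), and all 10 were found there. No measured value entered the choice, though earlier results of these data were known when it was made. A gene was counted as bound in a library when a deposited site lay within 1 kb of one of its annotated transcript starts. The question was whether E2f3 lay at its own gene and at the genes of its relatives, with and without Rb.

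Sites were mapped by ChIP-exo-seq, in which an exonuclease trims immunoprecipitated DNA up to the crosslinked protein. The 4 tissue groups were Rb-deficient villus, control villus, Rb-deficient crypt and control crypt, and each was probed with an E2f3 antibody and with a Myc antibody (both from Santa Cruz), which gave 8 libraries with 1 library per group. Per the labels, Rb was deleted by the inducible intestinal Cre recombinase Ah-cre, the controls were wild type, and all mice had a mixed C57BL/6, 129 and FVB/N background. The labels do not say whether the controls carried the Cre, how many animals contributed to a library, or how long after induction tissue was taken. The E2f3 lists held 14843 sites in Rb-deficient villus, 7405 in control villus, 27396 in Rb-deficient crypt and 32666 in control crypt, and the Myc lists 4119, 7223, 31397 and 159181 in the same order. Sequencing depth is unknown for every library. With 1 library per group no difference has a replicate check and no group was tested against another. A longer list reaches more genes, so the share of all protein-coding genes with a site stands beside each first count. Site lists hold no expression values, so neither the cell types nor the loss of Rb could be checked against marker genes.

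E2F proteins bind DNA at genes for the entry into and passage through S phase. E2f1, E2f2 and E2f3 are known as activators that Rb holds in check. E2f4 and E2f5 act mostly as repressors together with the pocket proteins, E2f6 represses without them, and E2f7 and E2f8 are atypical repressors that bind DNA without a DP partner. Tfdp1 and Tfdp2 encode the DP proteins with which the other E2Fs form dimers. Several E2F genes are themselves known E2F targets, which makes the family a network of auto- and cross-regulation. Crypts hold the dividing cells of the intestine and villi the differentiated ones.

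The sequences at the E2f3 sites are shown first, so that the positions given below can be read on them. Each window below covers sites of the E2f3 libraries at 1 gene, was read from NCBIM37 and is printed 5′ to 3′ on the strand of the gene. Capitals mark matches to the E2F motif TTNNCGC on either strand, where each N is C or G. A match is a description of the sequence. These windows lie at chr13:30077897-30077950 (E2f3, upstream of the first start), chr2:154395561-154395626 (E2f1, 5′ UTR and start), chr10:110182290-110182417 (E2f7, upstream), chr7:56137023-56137088 (E2f8, upstream), chr7:56136568-56136716 (E2f8, first intron) and chr8:13338700-13338741 (Tfdp1, upstream).
E2f3 upstream: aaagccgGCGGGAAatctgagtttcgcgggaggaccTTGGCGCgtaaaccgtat
E2f1 start: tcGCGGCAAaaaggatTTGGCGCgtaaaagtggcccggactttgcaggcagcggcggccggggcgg
E2f7 upstream: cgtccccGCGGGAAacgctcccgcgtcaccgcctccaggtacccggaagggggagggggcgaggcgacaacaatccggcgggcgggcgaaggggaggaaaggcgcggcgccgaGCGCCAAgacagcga
E2f8 upstream: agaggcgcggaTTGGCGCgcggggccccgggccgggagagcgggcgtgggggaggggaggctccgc
E2f8 intron: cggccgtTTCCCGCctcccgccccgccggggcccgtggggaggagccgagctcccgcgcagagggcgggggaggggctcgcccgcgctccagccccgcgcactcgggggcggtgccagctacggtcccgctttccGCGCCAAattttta
Tfdp1 upstream: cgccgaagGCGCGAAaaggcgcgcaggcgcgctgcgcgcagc

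At E2f2, E2f5, E2f6 and Tfdp2 no E2f3 site within 1 kb of a start lay on a match to that motif. Here capitals mark its 5-letter core NNCGC, each N again C or G, on either strand. The windows lie at chr4:135728167-135728246 (E2f2, upstream sites), chr4:135728388-135728428 (E2f2, best site, 5′ UTR), chr3:14578724-14578764 (E2f5, best site, 5′ UTR) and chr12:16817701-16817741 (E2f6, best site, upstream). In the 3 windows named for a best site, that site is the central base. The Tfdp2 window is not printed.
E2f2 upstream: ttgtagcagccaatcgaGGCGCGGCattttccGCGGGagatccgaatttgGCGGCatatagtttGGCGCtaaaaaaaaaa
E2f2 best site: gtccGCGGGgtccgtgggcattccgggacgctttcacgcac
E2f5 best site: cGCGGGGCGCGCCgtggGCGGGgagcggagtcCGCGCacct
E2f6 best site: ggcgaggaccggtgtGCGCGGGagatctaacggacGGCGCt
The core is a common sequence: 66.2% of the windows from 250 bases before to 50 after all 70021 starts held it, against 11.2% for the full motif.

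E2f3 was found at 4 to 9 of the 10 genes, and in each tissue group at a larger share of them than of all genes. In Rb-deficient villus 7 of 10 members were bound, against 4 of 10 in control villus, where 13.0% and 4.84% of all protein-coding genes were bound. In Rb-deficient crypt 9 of 10 members were bound, against 7 of 10 in control crypt, beside 21.2% and 15.8% of all genes. E2f2, E2f3, E2f8 and Tfdp1 were bound in all 4 E2f3 libraries, as were 3.66% of all genes. They were also the 4 members bound in both villus groups, where 4.02% of all genes were, and the 4 bound in both control groups, where 4.39% were. In at least 1 E2f3 library 9 members were bound, beside 25.3% of all genes, and E2f4 was bound in none. Members with 2 or more E2f3 sites within 1 kb numbered 4 in Rb-deficient villus, 2 in control villus, 6 in Rb-deficient crypt and 4 in control crypt, beside 2.14%, 0.522%, 5.01% and 2.71% of all genes. The members had 33 annotated starts, 3.3 per gene, and all protein-coding genes had 3.15 per gene. The numbers of bound members per E2f3 library were the same with only the starts of protein-coding transcripts, and with a window of 500 bp.

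**Figure D1:**
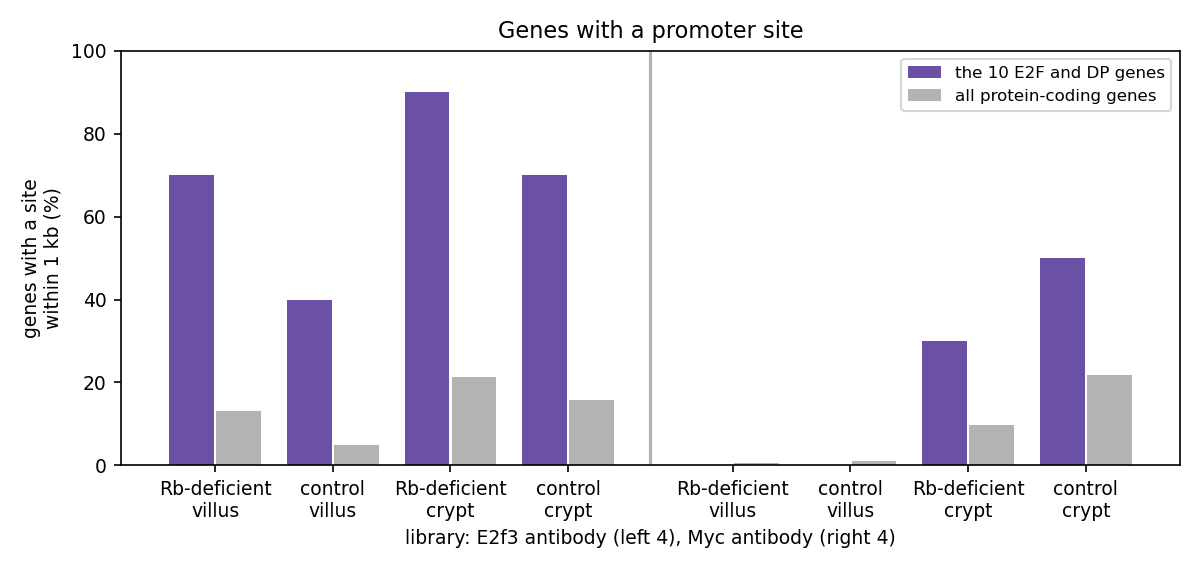
Percent of genes with at least 1 site within 1 kb of a start, per library, for the 10 E2F and DP genes (purple) and for all protein-coding genes (grey). With the E2f3 antibody 7, 4, 9 and 7 of the 10 members were bound, from left to right, and with the Myc antibody 0, 0, 3 and 5.

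Some members had an E2f3 site in Rb-deficient tissue and none in the control. In villus these were E2f5, E2f6 and E2f7, 3 of 10 members, while 8.98% of all genes had a site in Rb-deficient villus alone and 0.823% in control villus alone. In crypt they were E2f7 and Tfdp2, 2 of 10 members, beside 8.35% of all genes bound in Rb-deficient crypt alone and 2.91% in control crypt alone. The other 7 bound members of the crypts were bound in both, as were 12.9% of all genes. No member was bound in control tissue alone. The list of Rb-deficient villus was longer than that of control villus. With the 7405 highest-scored sites of each list, the bound members numbered 5 in Rb-deficient villus, 4 in control villus, 6 in Rb-deficient crypt and 4 in control crypt, and 7.35%, 4.84%, 7.85% and 5.15% of all genes were bound. E2f7 was then the 1 member with a site in Rb-deficient villus and none in control villus, and E2f7 and Tfdp1 were those of crypt. The best Tfdp1 site of control crypt ranked 7778th of all 32666 sites, just below the 7405 kept. With sites scoring 5 or more, E2f7 alone remained in both tissues. The share of all genes bound in Rb-deficient tissue alone is not given at these settings, so these members have no background beside them.

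Compared between tissues within a genotype, no member was bound in villus alone with the full lists, of which the crypt lists were the longer. Of the members bound in control crypt, E2f1, E2f5 and E2f6 had no site in control villus, while 11.4% of all genes were bound in control crypt alone and 0.454% in control villus alone. In Rb-deficient mice E2f1 and Tfdp2 were bound in crypt and not in villus, while 9.86% of all genes were bound in Rb-deficient crypt alone and 1.64% in Rb-deficient villus alone. The other 7 were bound in both Rb-deficient groups, as were 11.4% of all genes. With the 7405 highest-scored sites of each list, E2f5 and E2f6 had no site in control crypt, E2f1 was bound in crypt alone in both genotypes, and Tfdp1 was bound in control villus and not in control crypt. The best Tfdp1 site of control crypt stood just below that cut, at rank 7778.

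**Figure D2:**
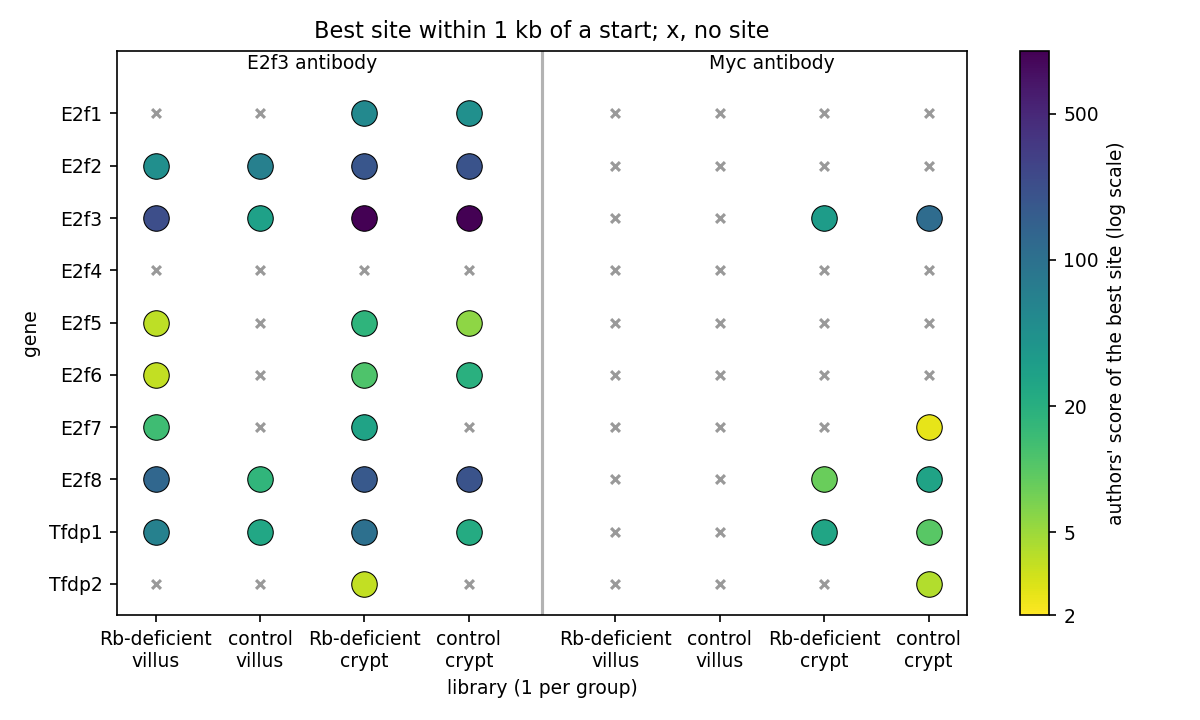
The authors' score of the highest-scored site within 1 kb of a start, for each gene (rows) and library (columns), as a colour on a log scale. A cross means no such site: E2f4 has crosses throughout, and the 2 villus Myc libraries have crosses for all 10 genes.

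The authors' score ranks sites within a list and is capped at 999, and no scale between lists is stated. Scores of different lists are therefore given side by side as deposited, and the place of a site is given as its rank among all sites of its own list that lay within 1 kb of a start. There were 3020 such sites in Rb-deficient villus, 1056 in control villus, 5349 in Rb-deficient crypt and 3762 in control crypt. The best sites of the members with a site had a median score of 46.8 in Rb-deficient villus, 27.1 in control villus, 53.3 in Rb-deficient crypt and 45.0 in control crypt, where the best sites of all genes with a site had 8.41, 9.7, 12.2 and 13.1. These medians leave out the members without a site.

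E2f3 had the highest-scored site of the family in 3 of the 4 libraries, at its own gene. The best site scored 232.38 in Rb-deficient villus, 29.55 in control villus, and 999, the cap, in both crypt libraries. In Rb-deficient villus it ranked 19th of 3020 promoter sites, in control villus 163rd of 1056, and in each crypt library it shared the top score with the other sites at the cap (125 sites of the whole list in Rb-deficient crypt and 70 in control crypt). Rb-deficient villus, Rb-deficient crypt and control crypt had this site at the same base, 30077940 of chromosome 13, which is 403 bp upstream of the first start. That base is the centre of the motif GCGGGAA, which is TTCCCGC read on the other strand. In control villus the site lay at 30077907, 370 bp upstream, 4 bp from the centre of a different motif, TTGGCGC. The base and the nearest motif thus differed in control villus. In the E2f3 upstream window printed above, the first capitals are the motif of the 3 libraries and the other capitals lie beside the control villus site.

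The E2f3 gene is known to make a longer and a shorter protein from separate promoters, and the annotation has 2 starts 1449 bp apart. A weaker group of sites lay between them, in the first intron, 547 to 581 bp after the first start. Its scores were 5.58 in Rb-deficient villus, 2.02 in control villus, 17.71 in Rb-deficient crypt and 20.41 in control crypt with the E2f3 antibody. The Myc antibody gave a site there as well, with a score of 33.32 in Rb-deficient crypt and 112.57 in control crypt. The 6 sites of both antibodies spanned 34 bp. The motif TTCGCGC lay nearby at 30076929 to 30076935, within 50 bp of 4 of the 6 positions, and no E-box (CACGTG, the sequence bound by Myc with Max) lay within 50 bp of any. This window is shown because both antibodies met there, with the E2F motif in capitals (chr13:30076926-30077020, strand of the gene).
E2f3 intron: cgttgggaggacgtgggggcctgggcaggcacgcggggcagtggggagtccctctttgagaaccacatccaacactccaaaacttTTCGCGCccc
A further group lay 2968 to 3014 bp after the later start, in an intron, in the 4 crypt libraries of both antibodies. It scored 8.73 in Rb-deficient and 20.88 in control crypt with the E2f3 antibody, and 9.27 in Rb-deficient and 170.42 in control crypt with the Myc antibody. No full E2F motif and no E-box lay within 50 bp of it. Thus the upstream E2f3 site was seen with the E2f3 antibody alone, and the intronic groups with both.

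**Figure D3:**
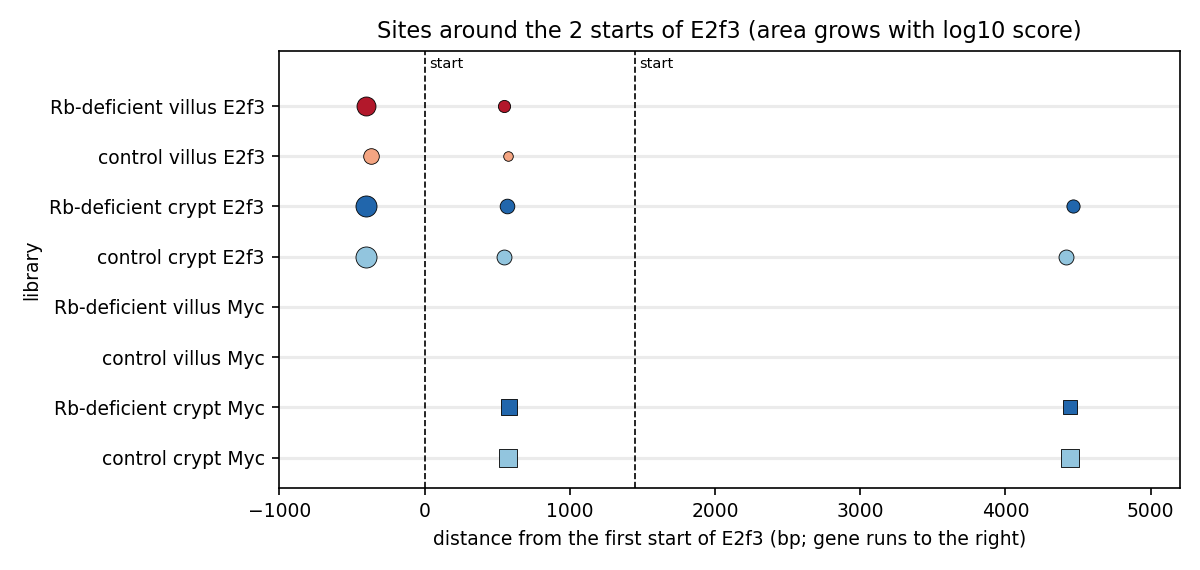
Sites around the E2f3 gene in the 8 libraries, by distance from the first start in bp; dashed lines mark the 2 annotated starts, circles are E2f3 sites, squares are Myc sites and the area grows with the log10 of the score. The upstream site appears in the 4 E2f3 libraries and in no Myc library, and the intronic sites between the starts in 6 libraries.

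E2f2, another activator, had sites on both sides of its start in 3 of the 4 E2f3 libraries. The best site lay in the 5′ UTR, with a score of 46.78 at 50 bp after the start in Rb-deficient villus, 67.68 at 31 bp in control villus, 187.56 at 53 bp in Rb-deficient crypt and 206.15 at 99 bp in control crypt. E2f2 had the highest-scored site of the family in control villus, where it ranked 55th of 1056 promoter sites, and it ranked 285th of 3020 in Rb-deficient villus. None of these 4 sites had a full E2F motif within 50 bp. The upstream site scored 40.19 in Rb-deficient villus and 65.52 in Rb-deficient crypt, both at 135728202, 107 bp before the start, and 53.64 in control crypt, at 135728211. It lay beside the core GCGGG, and a full motif was centred 30 bp from the shared base. Control villus had no site there. Farther away, both crypt libraries had an intronic E2f2 site at 135733797, centred on a full motif, with a score of 5.6 in Rb-deficient crypt and 2.1 in control crypt. The E2f2 upstream window above shows the GCGGG core and, nearer its end, the GGCGC that belongs to that full motif.

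E2f1, the founding activator, was bound in crypt and in neither villus library. Its best site scored 53.27 in Rb-deficient crypt, 47 bp after the start, and 44.97 in control crypt, 22 bp after it, both in the 5′ UTR on chromosome 2. The control crypt site lay 1 bp from the centre of TTGGCGC, and the Rb-deficient crypt site 26 bp from it. A further match, GCGGCAA, lies closer to the start in the printed window. An additional E2f1 site of Rb-deficient crypt scored 4.25 and lay 49 bp before a later start. The absence in villus held within 5 kb of the starts too.

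Of the repressor genes, E2f4 had no E2f3 site, and E2f5 and E2f6 had sites of low to middling rank in their lists. E2f4 had no E2f3 site within 5 kb of its start in any library, where 19.2% of all genes had one in Rb-deficient villus, 8.46% in control villus, 31.3% in Rb-deficient crypt and 28.3% in control crypt. Its start window held the core in 6 places and no full motif. The best E2f5 site scored 3.67 in Rb-deficient villus, 17.53 in Rb-deficient crypt and 5.8 in control crypt, with none in control villus. The crypt sites lay at the same base, 14578744 on chromosome 3, and the villus site at 14578679, all in the 5′ UTR. E2f6 scored 3.51 in Rb-deficient villus, 11.36 in Rb-deficient crypt and 19.17 in control crypt, with none in control villus. All 3 lay at 16817721 on chromosome 12, 50 bp upstream of the start, on the core GCGGG. In Rb-deficient villus the sites of E2f5 and E2f6 stood at 81.7% and 83.2% of the promoter sites, counted from the highest score, and were lost with sites scoring 5 or more. In Rb-deficient crypt they stood at 34.0% and 46.1%, and in control crypt at 73.9% and 34.6%. Neither gene had a full E2F motif within 250 bp of a site.

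The atypical repressors E2f7 and E2f8 differed from each other in their scores. E2f7 was bound by E2f3 in both Rb-deficient groups and in no control E2f3 library. The share of all genes with this E2f3 pattern is not given here, and some genes of the pathway lists below had it too. With the same presence in all 8 libraries, Myc included, 93 genes were counted. In Rb-deficient villus its sites scored 13.93, at 110182300 on chromosome 10, and 11.1, at 110182407. In Rb-deficient crypt they scored 6.72, again at 110182300, 27.38 at 110182374 and 2.06 at 110182973. The base shared by both libraries, 195 bp upstream of the first start, is the centre of GCGGGAA, and the site at 110182407 lay 1 bp from the centre of GCGCCAA. Both motifs are in capitals in the E2f7 window. The best E2f7 sites ranked 925th of 3020 in Rb-deficient villus and 1260th of 5349 in Rb-deficient crypt. They thus stood at 30.6% and 23.6% of the promoter sites, counted from the highest score. With sites scoring 20 or more, only the Rb-deficient crypt site was left.

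E2f8 had 3 E2f3 sites in Rb-deficient villus, 2 in control villus, 5 in Rb-deficient crypt and 3 in control crypt, at 2 main places. The first was the region between its 2 protein-coding starts, which lie 555 bp apart. The best site there scored 127.47 in Rb-deficient villus, 17.24 in control villus, 180.2 in Rb-deficient crypt and 202.99 in control crypt, and the 4 lay at 4 different bases from 56136621 to 56136706 on chromosome 7. The control villus site lay on the centre of TTCCCGC at 56136703 to 56136709. The best sites of the other 3 libraries lay between that motif and GCGCCAA, at 56136575 to 56136581, in a stretch of cores, and a weaker site of Rb-deficient crypt (26.97) lay on the centre of GCGCCAA. The E2f8 intron window shows both motifs at its ends. The second place was upstream of the first start, with a score of 46.83 at 67 bp in Rb-deficient villus, 100.33 at 112 bp in Rb-deficient crypt and 116.82 at 95 bp in control crypt. Control villus had no upstream site. In control villus E2f8 was thus seen at 1 of its 2 main places, and its best site ranked 296th of 1056, against 65th of 3020 in Rb-deficient villus.

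Tfdp1, which encodes the main DP partner, was bound by E2f3 in every group, close to the first start. The best site scored 66.91 in Rb-deficient villus, 24.69 in control villus, 103.3 in Rb-deficient crypt and 22.21 in control crypt, at 40, 41, 20 and 36 bp upstream in the same order. The villus sites and the control crypt site lay 0, 1 and 4 bp from the centre of GCGCGAA, at 13338708 to 13338714 on chromosome 8, and the Rb-deficient crypt site 20 bp from it. These sites ranked 189th of 3020, 198th of 1056, 356th of 5349 and 1132nd of 3762. Tfdp2, the other DP gene, had a single E2f3 promoter site, with a score of 3.54 in Rb-deficient crypt, 300 bp after a start in an intron, which was lost with sites scoring 5 or more. Within 5 kb it had an intronic site in both crypts. This lay 1749 bp before a later start in Rb-deficient crypt (14.95) and 1742 bp before it in control crypt (9.9). Within 5 kb E2f7 was thus the 1 member found in Rb-deficient crypt and not in control crypt. For that window the share of all genes bound in Rb-deficient crypt alone is not given.

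**Figure D4:**
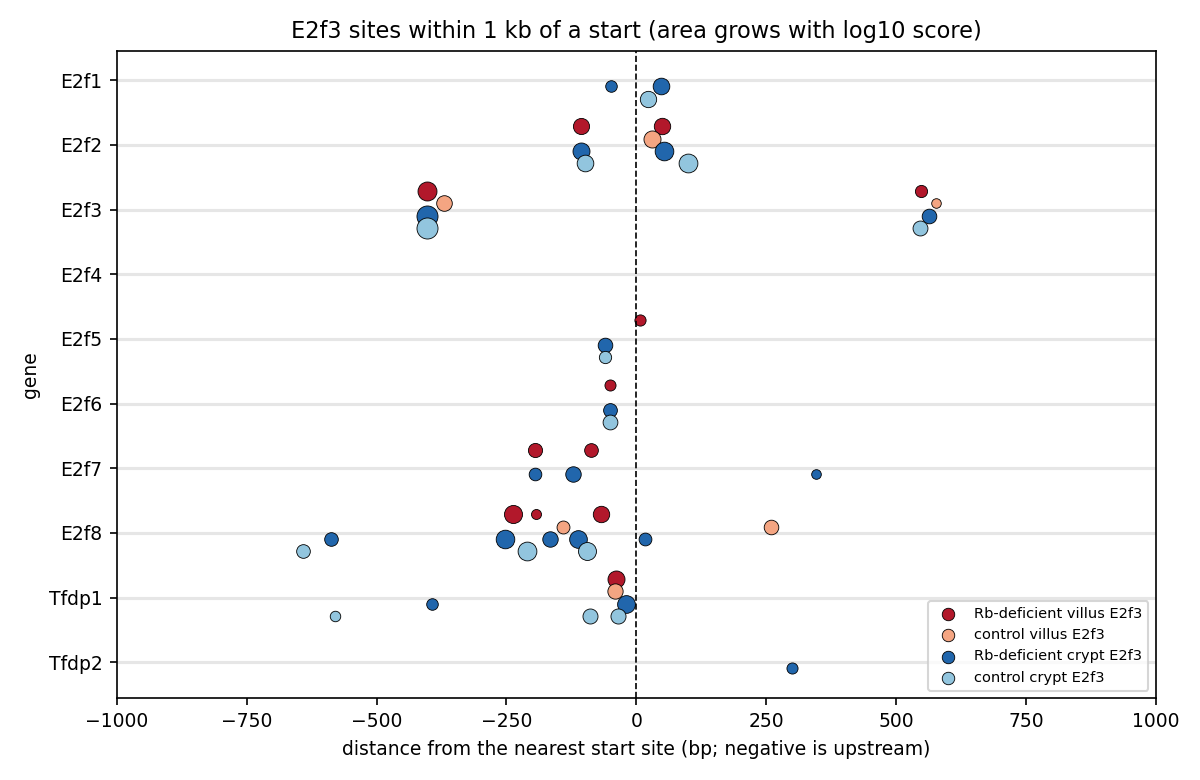
E2f3 sites within 1 kb of a start for each gene, by distance from the nearest start in bp, coloured by library, with the area growing with the log10 of the score. The E2f3 gene stands out by a site 403 bp upstream in 3 libraries and 370 bp upstream in control villus, and most other sites lie within 250 bp of a start.

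Sites at the members had the full E2F motif within 50 bp in 6 of 12 cases in Rb-deficient villus (exact 95% binomial interval of the share 21.1% to 78.9%), and in 4 of 6 in control villus, 66.7% (22.3% to 95.7%). In Rb-deficient crypt it was 12 of 19, 63.2% (38.4% to 83.7%), and in control crypt 8 of 13, 61.5% (31.6% to 86.1%). All E2f3 promoter sites had it in 36.9%, 54.7%, 31.6% and 36.6% in the same order. The share in Rb-deficient crypt lay above that of all promoter sites by more than its interval, and the other 3 intervals held the value of all promoter sites. The intervals cover counting error only, sites of 1 gene are not independent, and those of the authors' events that have a motif within 50 bp often lie exactly on it. The CHR element (TTCGAA or TTTGAA), known from mitotic genes, lay within 50 bp of 2, 1, 1 and 1 member sites in the same order. A CCAAT box (CCAAT) lay within 50 bp of 3, 0, 2 and 2. All E2f3 promoter sites had a CHR element nearby in 9.27%, 5.97%, 7.63% and 7.52% and a CCAAT box in 19.5%, 13.6%, 17.9% and 15.8%. Of the start windows (250 bases before to 50 after), the full E2F motif was present at E2f1, E2f2, E2f7, E2f8 and Tfdp1, 5 of 10 members, and at 18.2% of all genes. E2f3 is not among them since its bound motifs lie farther upstream than this window reaches.

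**Figure D5:**
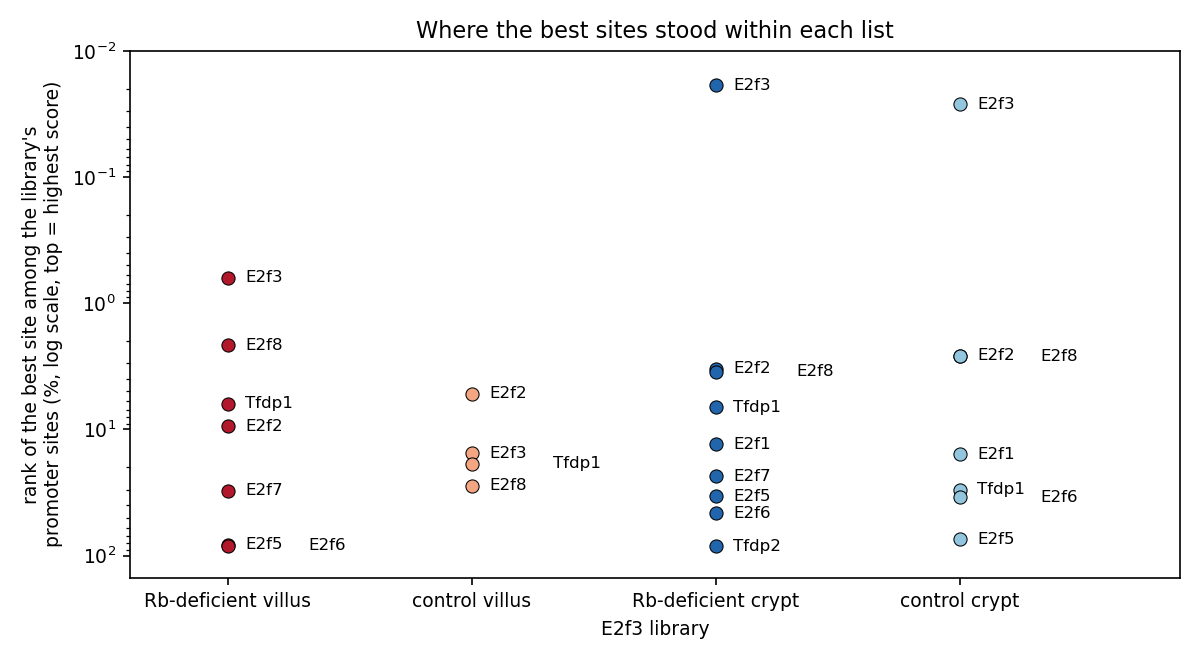
Rank of each member's best E2f3 site among all sites of the same library within 1 kb of a start, in percent on a log scale with the highest-scored sites at the top. E2f3 lies highest in 3 libraries and at 15.4% in control villus, where E2f2 lies highest at 5.21%, and E2f5 and E2f6 lie at 81.7% and 83.2% in Rb-deficient villus.

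Most member sites had a counterpart in the library of the other genotype. Of the 12 member sites in Rb-deficient villus, 7 had a control villus site and 11 a Rb-deficient crypt site within 250 bp, beside 29.4% and 83.9% of all its promoter sites. All 6 control villus member sites had a partner in Rb-deficient villus, against 78.8% of all promoter sites of control villus. Of the 19 sites in Rb-deficient crypt 14 had a control crypt partner, and all 13 control crypt sites had a Rb-deficient crypt partner, beside 54.9% and 76.2%. The same base was rarer between the villus libraries: none of the 12 member sites of Rb-deficient villus fell on the base of a control villus site, where 17.2% of all its promoter sites did. With Rb-deficient crypt 4 of the 12 did, against 48.4% of all its promoter sites. Those 4 were at E2f2, E2f3, E2f6 and E2f7.

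Myc sites lay at members in the crypt libraries and at none in the villus libraries, whose Myc lists reached few genes. In Rb-deficient villus 0 of 10 members had a Myc site within 1 kb, as in control villus, where 0.607% and 1.05% of all genes had one. The count was 0 in both within 5 kb too, where 2.69% and 4.49% of all genes had a site. In Rb-deficient crypt 3 of 10 members had a Myc site (E2f3, E2f8 and Tfdp1), against 5 of 10 in control crypt (E2f3, E2f7, E2f8, Tfdp1 and Tfdp2), beside 9.63% and 21.7% of all genes. Within 5 kb the counts were 6 in Rb-deficient and 7 in control crypt, beside 22.9% and 57.2% of all genes. Thus 3 members had a Myc site in both crypts (6.45% of all genes), 2 in control crypt alone (15.3%) and 0 in Rb-deficient crypt alone (3.18%), and 5 in at least 1 Myc library (25.0%). E2f3, E2f8 and Tfdp1 were also the members with both antibodies in Rb-deficient crypt, where 5.46% of all genes had both, and in control crypt, where 7.43% did. The E2f8 sites, with a score of 8.33 in Rb-deficient and 27.23 in control crypt, lay beside a start annotated for a retained intron 6345 bp after the first start, and E2f8 was no longer counted when starts of protein-coding transcripts alone were used. No crypt E2f3 site lay at that place, since those of E2f8 lay from 56136394 to 56137607 on chromosome 7. The E2f3 sites found there were of villus, with a score of 2.34 in Rb-deficient and 7.59 in control villus. E2f7 (2.53) and Tfdp2 (4.12) were low in control crypt. With sites scoring 5 or more, E2f3, E2f8 and Tfdp1 made up the members in both crypts, and with the 4119 highest-scored sites of each list the count was 1 in Rb-deficient crypt (E2f3) and 0 in control crypt.

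Among the promoter Myc sites of the members, only some of those at Tfdp1 lay on an E-box. In Rb-deficient crypt its sites scored 26.2 at 363 bp upstream of the first start, 5.49 at 228 bp upstream and 12.69 at 157 bp before a later start, and control crypt had a single one, 10.08, at 99 bp before that later start. The sites at 363 and 228 bp upstream each lay on the centre of a CACGTG, and neither had a control crypt Myc site at its place. The sites before the later start, found in both crypts, had no E-box within 50 bp. An E-box lay within 50 bp of 27.4% of all promoter Myc sites in Rb-deficient crypt and of 3.61% in control crypt. Both sites are shown because they carry the E-box (capitals), at chr8:13338368-13338408 and chr8:13338503-13338543.
Tfdp1 Myc site: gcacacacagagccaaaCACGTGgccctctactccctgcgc
Tfdp1 other Myc site: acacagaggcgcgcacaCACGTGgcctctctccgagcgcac
A low-scored E2f3 site of Rb-deficient crypt (4.26) lay 394 bp upstream, 31 bp from the E-box of the first of these. A full E2F motif was centred nearer to that E2f3 site, 6 bp from it. Of the 19 E2f3 member sites in Rb-deficient crypt 3 lay within 250 bp of a Myc site, against 17.9% of all promoter sites, and in control crypt 1 of 13, against 31.7%.

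Outside the 1 kb windows, E2f2 had a group of sites of both antibodies 3702 to 3730 bp upstream of its first start, outside the gene. It was present in 5 libraries within 28 bp, with E2f3 scores of 5.27 in Rb-deficient villus, 6.16 in Rb-deficient crypt and 12.84 in control crypt, and Myc scores of 16.15 in Rb-deficient crypt and 62.02 in control crypt. Tfdp2 had one of 4 libraries within 18 bp, 1742 to 1760 bp before its later start. Its E2f3 sites are described above, and its Myc scores were 26.09 in Rb-deficient and 113.74 in control crypt. None of the positions of these 2 groups had an E2F motif, an E2F core, an E-box, a CHR element or a CCAAT box within 50 bp. They differ in this from the intronic E2f3 group between the starts, where all 6 positions had a core. E2f4 had Myc sites in control crypt 4537 and 4674 bp after its start (14.55 and 8.32).

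E2f3 also lay at genes that act with the E2Fs in the pathway. A list of 10 genes held those of the pocket proteins (Rb and its relatives), those of the MuvB complex, Mybl2 and Foxm1. Of these, sites were at 7 in Rb-deficient villus, 4 in control villus, 10 in Rb-deficient crypt and 6 in control crypt, beside 13.0%, 4.84%, 21.2% and 15.8% of all genes. Those with a site in control villus were Rb1 (5.64 in Rb-deficient and 3.47 in control villus), Rbl1 (69.36 and 44.45), which encodes p107, Lin52 (55.58 and 21.78) and Rbbp4 (no site and 7.95). Of 16 genes of G1/S cyclins, kinases and inhibitors it was at 11, 3, 12 and 5 in the same order, beside the same shares of all genes. The 3 in control villus were Ccne1 (36.55 in Rb-deficient and 4.13 in control villus) and Ccne2 (22.62 and 2.68), the genes of cyclin E, and Cdkn2c (59.01 and 5.72), a Cdk4 and Cdk6 inhibitor. Both lists were chosen with earlier results of these data known. Counts of these sizes were not tested against each other.

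The genes most like each member were found among those with the same presence in all 8 libraries, by the distance between the percent ranks of their best sites over the E2f3 libraries with a site. E2f2 shared its presence with 401 genes, of which Mboat7 and Tsen34 were nearest, both at 1.62 percentage points and with the same ranks. E2f3, E2f8 and Tfdp1 shared 1 pattern, E2f3 in all 4 groups and Myc in both crypts, with 107 genes counted for each. Nearest to E2f3 were Atf6 at 9.73 and D17H6S56E-5 at 11.3 points, to E2f8 Cbara1 at 9.36 and Brca2 at 9.8, and to Tfdp1 Zfp280d at 13.9 and Tsga14 at 16.1. E2f5 and E2f6 shared theirs with 570 genes, E2f5 being nearest to Pwp2 (8.44) and Phf13 (9.3), and E2f6 to 4930408O17Rik and Clmn (both 3.08). Mboat7 and Tsen34, and likewise 4930408O17Rik and Clmn, had the same ranks in every E2f3 library with a site. A site counted for every gene with a start within 1 kb, so each pair may be the same sites counted for both genes. These distances rest on 3 or 4 libraries of 1 sample each and describe the lists only.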

How the data were processed

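The submitters' processing notes name Bowtie2 2.2.1, MACS2 2.0.10 and the build mm9. The deposited file names describe GEM events at MACS2 peaks, merged data and retained duplicates; what was merged and which thresholds applied is not known here. A deposited list holds 1-bp positions and the authors' score, from 2 to 999, of unstated meaning and normalization. Between 145 and 201 sites per list lay on contigs outside the reference used. The origin of the positions was read from the E2f3 sites with a full E2F motif within 50 bp. In Rb-deficient villus these were 786 for 1 strand and 896 for the other, of 14843 sites. Counting the deposited positions from 0 put such sites at a median of 0 bp from the motif centre on both strands in each E2f3 list. Coordinates here are therefore those positions plus 1.

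Genes, starts and sequence came from GENCODE M1 and NCBIM37, on which mm9 rests (Python 3.11.15, pysam 0.24.0, scipy 1.17.1). All transcript starts of a gene were used, 70021 in all, and a site counted for every gene with a start within 1 kb. Assignment, by distance without its sign, and the motif search, in random sequence of A and T, were tested on simulated data. For sharing only the search for the nearest site was run on such data, and no sharing distance was tried. A percent rank is the place of a score in its list, counted from the highest, as a percent of the promoter sites. The named genes were the 10 members with their best sites, the 2 most similar genes of each member bound in at least 3 E2f3 libraries, and pathway genes with a site in control villus. Mybl2 and Foxm1 were named only to describe a list. The printed windows over several sites, and the Myc windows, were chosen after the sites were seen. Alternatives changed the window, the starts, the score minimum, the list length, the motif, the sharing distance and the origin of positions. Members and lists were chosen with earlier results of these data known. With 1 library per group no test between groups was possible.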

Additional observations from a re-analysis of the deposited data

Results flagged for a closer look

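More than 5 kb from every start, 3 places within member genes held sites of both antibodies in more than 3 libraries, outside the windows described above. An intron of Tfdp1 had sites in 6 of the 8 libraries, within 55 bp, from 13357434 to 13357489 on chromosome 8. Its E2f3 scores were 10 in control villus, 47.42 in Rb-deficient crypt and 47.9 in control crypt, and its Myc scores 15.26 in Rb-deficient villus, 17.18 in control villus and 52.54 in Rb-deficient crypt. These were the only sites of the villus Myc libraries within Tfdp1. An intron of Tfdp2 had sites in 5 libraries from 96154242 to 96154293 on chromosome 9, with E2f3 scores of 3.62 in control villus and 14.0 in control crypt and Myc scores of 4.51 in Rb-deficient villus, 26.22 in Rb-deficient crypt and 66.25 in control crypt. About 1 kb before it, from 96153083 to 96153105, 4 libraries had sites, with E2f3 scores of 10.42 in Rb-deficient and 9.77 in control crypt and Myc scores of 7.7 in Rb-deficient and 105.63 in control crypt. None of these positions had a full E2F motif, its core or an E-box within 50 bp. The cause was not tested.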

How the results depend on the processing

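No paired analysis was possible because each group has 1 library, and no replicate could be left out. Depth is unknown, so a gene without a site was only not listed. The E2f3 member counts in the 4 groups were within 1.5 times those reported under every alternative but 2: with scores of 20 or more Rb-deficient villus had 4, and at equal list length control crypt had 4. Members with a site in Rb-deficient but not control tissue were least stable. The share of all genes with such a site is given for the full lists within 1 kb only. In villus 1 remained at scores of 5 or more (E2f7), 1 counted at 20 or more (E2f8) and 1 at equal length (E2f7). In crypt 1 counted within 5 kb, at scores of 5 or more and at 20 or more (E2f7 each time). For Myc, Rb-deficient crypt had 6 members within 5 kb and 1 at equal length, and control crypt had 2 within 500 bp, 3 at scores of 5 or more, 2 at 20 or more and 0 at equal length.

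The share of all genes bound moved as follows. Within 5 kb it was 8.46% in control villus and 28.3% in control crypt for E2f3, and 2.69%, 4.49%, 22.9% and 57.2% for Myc in Rb-deficient villus, control villus, Rb-deficient crypt and control crypt. Within 500 bp Myc gave 0.333% in Rb-deficient villus, 0.486% in control villus and 12.2% in control crypt, and from gene 5′ ends alone 0.292%, 0.522% and 12.9% in the same order. With scores of 20 or more it was 3.2%, 1.27%, 7.64% and 5.86% for E2f3 and 0.0854%, 0.171%, 2.15% and 8.9% for Myc, in the order of the 4 groups. At equal length E2f3 gave 7.35% in Rb-deficient villus, 7.85% in Rb-deficient crypt and 5.15% in control crypt, and Myc 0.544% in control villus, 1.18% in Rb-deficient crypt and 0.666% in control crypt.

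With the 5-letter core the share of member sites with a match was 91.7%, 100%, 100% and 92.3%, and within 250 bp the full motif was at 84.2% in Rb-deficient crypt. Within 50 bp 4 Rb-deficient villus sites had a control villus partner. Within 10 bp 1 Rb-deficient villus site, 1 control villus site, 4 Rb-deficient crypt sites and 4 control crypt sites had a partner in the other genotype. Counting deposited positions from 1 put the median distance from a start at -6 bp in control villus, -62 bp in Rb-deficient crypt and -90 bp in control crypt, a shift of 1 bp. A wider window or shorter motif counts more, and a score minimum or shorter list fewer, by construction.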
